A study of Labrus bergylta with 24 samples.

Results

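Ammonia transport and glutamine metabolism in the ballan wrasse intestine were followed through 16 gene models of the 27392 in the deposited table. They are the models whose name is rhbg, rhag, rhcg, glul, glud1, gls2, cps1, asns or got1, with case ignored and with an optional trailing digit, a or b. Of these 9 names, 8 had at least 1 model, and no model carried the name cps1. There were 4 models of rhbg, 3 of glul, 2 each of glud1, gls2 and got1, and 1 each of rhag, rhcg2 and asns. Names and identifiers are spelled as in the table, where the same gene may stand in capitals or in lower case. Several models that share a name may be duplicates of 1 gene or parts of it, and the sources used here do not say how reads that match more than 1 model were handled.

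Ammonia is set free when amino acids are used as fuel, and it is toxic if it builds up. Proteins of the Rh family form channels through which ammonia crosses cell membranes; in mammals Rhag lies in red blood cells, while Rhbg and Rhcg lie in epithelia, and in fish the family serves ammonia excretion at the gills. Glutamine synthetase (Glul) binds ammonia to glutamate, and Gls2 releases it again from glutamine. Glutamate dehydrogenase (Glud1) takes ammonia from glutamate in the mitochondrion, cytosolic aspartate aminotransferase (Got1) moves the amino group between glutamate and aspartate, and asparagine synthetase (Asns) uses glutamine to make asparagine.

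The ballan wrasse, Labrus bergylta, is a marine fish without a stomach, and its intestine was divided into 4 consecutive segments, of which segment 1 is the most anterior and segment 4 is the hind-gut. All fish were untreated adults from a commercial farm, so no group carries a treatment or a genotype, and the segment is the only factor that differs between the groups. Each of 6 fish gave all 4 segments, which makes 24 libraries with 6 per segment. The methods speak of fewer fish than the labels do, and all 24 libraries were used here. The deposited values are normalized read counts, scaled by library depth and not by gene length, so levels are compared between segments and not between genes. Differences were tested as log2(value + 1) with limma over the 19515 models that reached 10 in 6 or more libraries, and a model is called where the p adjusted by Benjamini-Hochberg over all of them is under 0.05. Adding 1 makes the fold changes of sparsely read models smaller than they are. Of the 16 models, 11 passed this filter and 5 did not.

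Libraries held 7867202 to 29650320 reads with a median of 19657832, and 1 read was worth a value of 0.597 to 2.49. The shallowest library was segment 2 of fish 1. The segment 4 library of fish 2 stood apart, with the highest value of segment 4 in rhbg (LABE_00033114), GOT1 (LABE_00049092) and glud1 (LABE_00040230), so results that rest on fish 2 are given with and without it. Fish and libraries said to stand apart were marked out by their values in these same models. Fits without them are therefore no separate support for a difference. Models from a list of markers of enterocytes, the absorptive cells of the intestine, were read in every segment. The adhesion molecules Epcam and CDH1 (LABE_00043297) had means of 9721 and 16292 in segment 1 and of 11007 and 14648 in segment 4, with limma log2 fold changes of 0.18 (adjusted p = 0.232) and -0.15 (adjusted p = 0.371). These are single examples from the enterocyte list, named with their values known. They do not stand for the list, and as adhesion molecules they do not stand for absorptive cells alone. Over the whole list, limma called 19 of 46 models lower in segment 4 than in segment 1 and 4 higher, beside 14.8% and 17.1% of all models. The summed level of the list was 474021 to 624297 in segment 1 and 226472 to 338416 in segment 4. In such bulk tissue, fewer cells of a type and less RNA per cell cannot be told apart.

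Between the ends of the intestine, 3 of the 11 models were lower in segment 4 than in segment 1 and 0 were higher (limma, adjusted p under 0.05). The ammonia channel rhbg (LABE_00033114) fell 344-fold and the aspartate aminotransferase GOT1 (LABE_00049092) 136-fold, both on the log2(value + 1) scale, and the glutamate dehydrogenase glud1 (LABE_00040230) fell 3.58-fold. Among all models tested, 14.8% were called lower in segment 4 and 17.1% were called higher. The median log2 fold change was -0.16 over the 11 models and 0.04 over all. Over the 11 models it was 0.05 with quantile normalization and 0.03 without fish 2. None of the other 8 models had an unadjusted p under 0.05, and edgeR and DESeq2 on recovered whole reads likewise called 0 of the 11 higher.

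**Figure D1:**
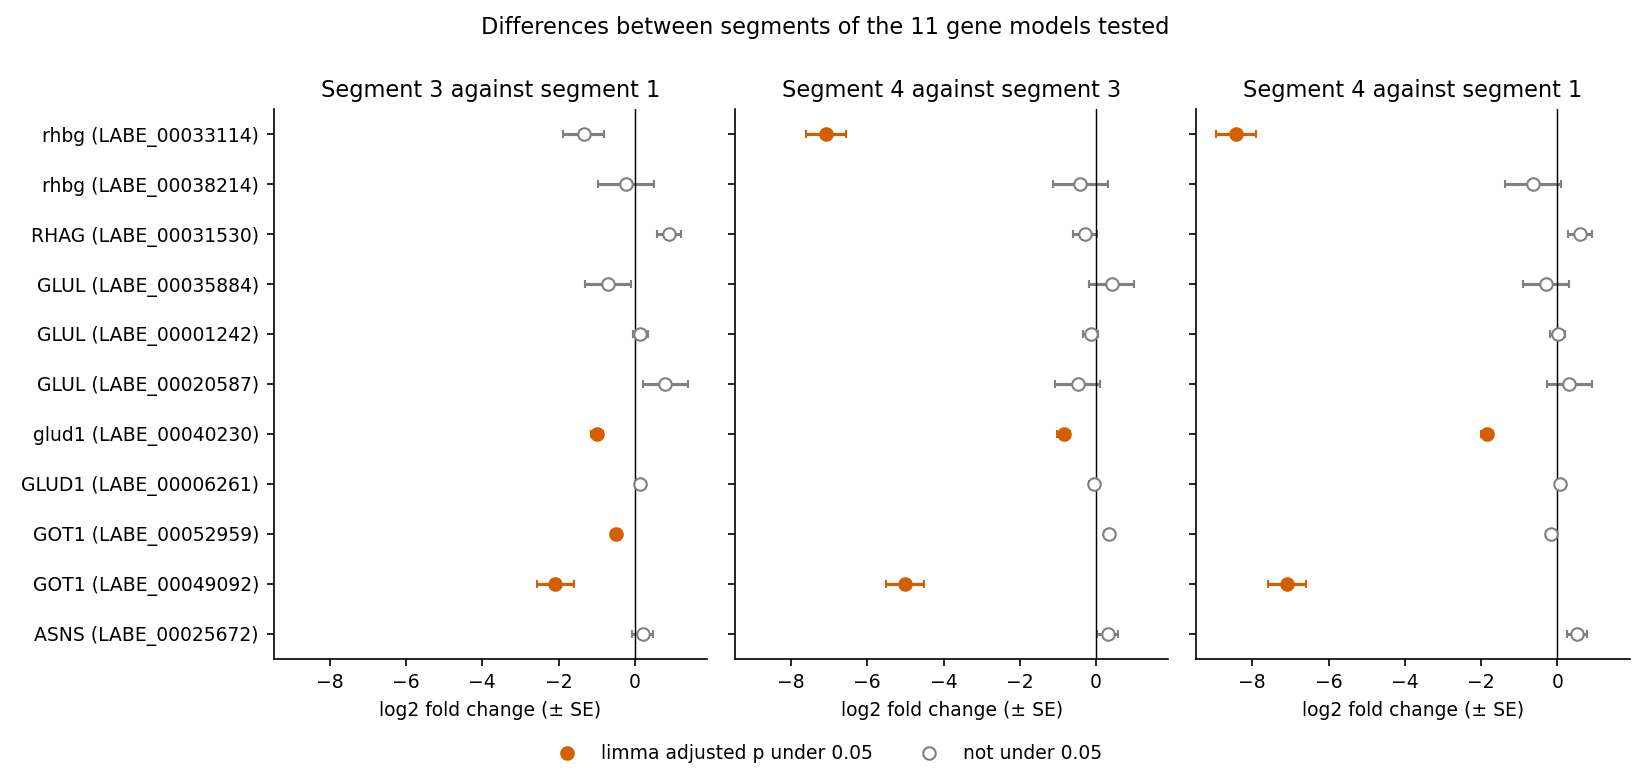
Log2 fold change (x axis, with its standard error as the bar) of each of the 11 models tested (y axis) for 3 comparisons of segments, filled where the limma adjusted p is under 0.05. The models rhbg (LABE_00033114) and GOT1 (LABE_00049092) lie at -8.43 and -7.09 between segments 4 and 1, and most of that distance falls between segments 4 and 3.

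The most anterior segments held the highest levels of rhbg (LABE_00033114). Its normalized read count was 1948 to 26989 with a median of 18184 in segment 1, and 4268 to 21270 with a median of 13527 in segment 2. It was 3654 to 9615 with a median of 4001 in segment 3, and 11.4 to 92.4 with a median of 31.0 in segment 4, where 12 to 83 reads stood behind each value. Every library of segment 4 lay below every library of the other segments, and all 6 fish fell both from segment 1 to 4 and from segment 3 to 4. Against segment 1 its log2 fold change was -8.43 ± 0.53 (SE, limma adjusted p = 2.64e-11), and against segment 3 it was -7.08 ± 0.53 (limma adjusted p = 1.14e-09). Without fish 2 these were -8.60 and -7.42 (limma adjusted p = 5.89e-10 and 8.1e-09). The order of the means was segment 1, 2, 3 and 4, in which segments 1 and 2 did not differ beyond their spread (log2 fold change 0.01 ± 0.53, limma adjusted p = 1).

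From segment 2 to segment 3, rhbg (LABE_00033114) was lower in 6 of 6 fish, but the limma test without fish did not call this step (log2 fold change -1.35 ± 0.53, adjusted p = 0.259). With fish as a block it did (adjusted p = 0.0355), as it did for segment 3 against segment 1 (log2 fold change -1.34, adjusted p = 0.0974 without and 0.0118 with the block). DESeq2 likewise called both steps, whereas edgeR and array weights in limma called segment 3 against segment 1 only. Fish 1 stood apart here, at 1948 in segment 1 where the other fish were at 8148 or more, and without it the limma adjusted p of these steps was 0.0412 and 0.00225. The study itself singled out this rhbg model on these libraries, so its fall towards the hind-gut is not independent of that choice.

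A second rhbg model (LABE_00038214) varied far more by fish than by segment. Fish 2 and fish 4 held 6.68 to 33.4 in all 4 segments, whereas the other 4 fish held 62.1 to 213. Its medians were 113, 88.6, 85.0 and 65.2 in segments 1 to 4, and no comparison called it (segment 4 against segment 1, log2 fold change -0.64 ± 0.73, limma adjusted p = 0.565). The remaining rhbg models, LABE_00008220 and LABE_00082819, had reads in 3 and 4 of the 24 libraries, with at most 9 and 2 reads. The single rhcg2 model (LABE_00005907), of the channel that lies apically in mammalian epithelia, had reads in 8 libraries and at most 7 in any. These 3 models did not pass the filter.

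The red cell channel RHAG (LABE_00031530) was the one Rh model with its highest mean in segment 3. Its values were 79.9 to 209 with a median of 108 in segment 1, and 60.5 to 146 with a median of 113 in segment 2. They were 116 to 377 with a median of 217 in segment 3, and were 93.7 to 276 with a median of 199 in segment 4. The 4 segments differed as a whole (limma moderated F test, adjusted p = 0.0314), but the ranges overlapped. Over all 6 fish the limma test called none of the pairs of segments that were tested, and segment 4 against segment 2 was not tested. The nearest were segment 3 against segment 2 (log2 fold change 1.06 ± 0.31, limma adjusted p = 0.0832) and against segment 1 (0.89 ± 0.31, limma adjusted p = 0.0592). Over the same fish both steps were called with DESeq2 (adjusted p = 0.0212 and 0.03) and with array weights in limma (0.0122 and 0.0142).

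Fish 2 moved against the other 5 fish in RHAG, with 209 in segment 1 and 116 in segment 3. Without fish 2, RHAG was called higher in segment 3 than in segment 2 (log2 fold change 1.29, limma adjusted p = 0.0195) and than in segment 1 (1.24, limma adjusted p = 0.00707). Without fish 1, 3, 4 or 5 the F test no longer called it, and its limma adjusted p reached 0.189. Of 14 red blood cell markers tested, limma called 0 in segment 3 when set against segment 1 or segment 2. At an unadjusted limma p under 0.05 there were 1 and 2. Among all 19515 models the same tests called 2721 and 406, and 5158 and 2289 had an unadjusted p under 0.05. In segment 4 against segment 1, 0 were called higher and 2 lower, beside 17.1% and 14.8% of all models. Single markers went in both directions. The haemoglobin hba had means of 2341, 1273, 2053 and 3294 in segments 1 to 4, and HEMGN had 2217, 2129, 1754 and 1203. The summed level of this list was 8625 to 21000 in segment 1, 8055 to 11828 in segment 2, 8412 to 12448 in segment 3 and 7242 to 17872 in segment 4. The part of blood in the RHAG values was not tested.

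In glutamine synthetase, levels followed the fish more than the segment. The glutamine synthetase model with the most reads, GLUL (LABE_00035884), had medians of 34050, 29962, 23045 and 25283 in segments 1 to 4. Its range within a segment was wide, from 8556 to 55521 in segment 1, 6840 to 52434 in segment 2, 3319 to 50453 in segment 3 and 8025 to 36186 in segment 4. Fish 5 was the highest in every segment. Fish 3 was at 6522 to 8556 in segments 1 to 3 and at 22767 in segment 4, and fish 2 dropped from 27180 in segment 2 to 3319 in segment 3. Segments 4 and 1 did not differ beyond this spread (log2 fold change -0.29 ± 0.59, limma adjusted p = 0.761). From segment 2 to segment 3 this model was lower in 6 of 6 fish without a call (log2 fold change -0.64 ± 0.59, limma adjusted p = 0.829).

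The other well-read glutamine synthetase, GLUL (LABE_00001242), showed no called difference between segments. Its medians were 9544, 11081, 11207 and 10324 in segments 1 to 4, with single libraries between 5778 and 18155, and its log2 fold change between segments 4 and 1 was 0.01 ± 0.20 (limma adjusted p = 0.983). Fish 5 again was the highest in segments 1 to 3. The remaining GLUL model (LABE_00020587) held 0 to 34.5 and was not called in any comparison.

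Both models of the enzyme that parts glutamine into glutamate and ammonia in the liver of mammals, Gls2 (LABE_00045226) and GLS2 (LABE_00045227), failed the filter, at 0 to 6.98 and 0 to 18.2. For GLS2, fish 5 held the highest value in each segment, between 8.64 and 18.2, and the other fish stayed at 5.21 or less. Differences of these models between segments were not detectable at this depth.

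**Figure D2:**
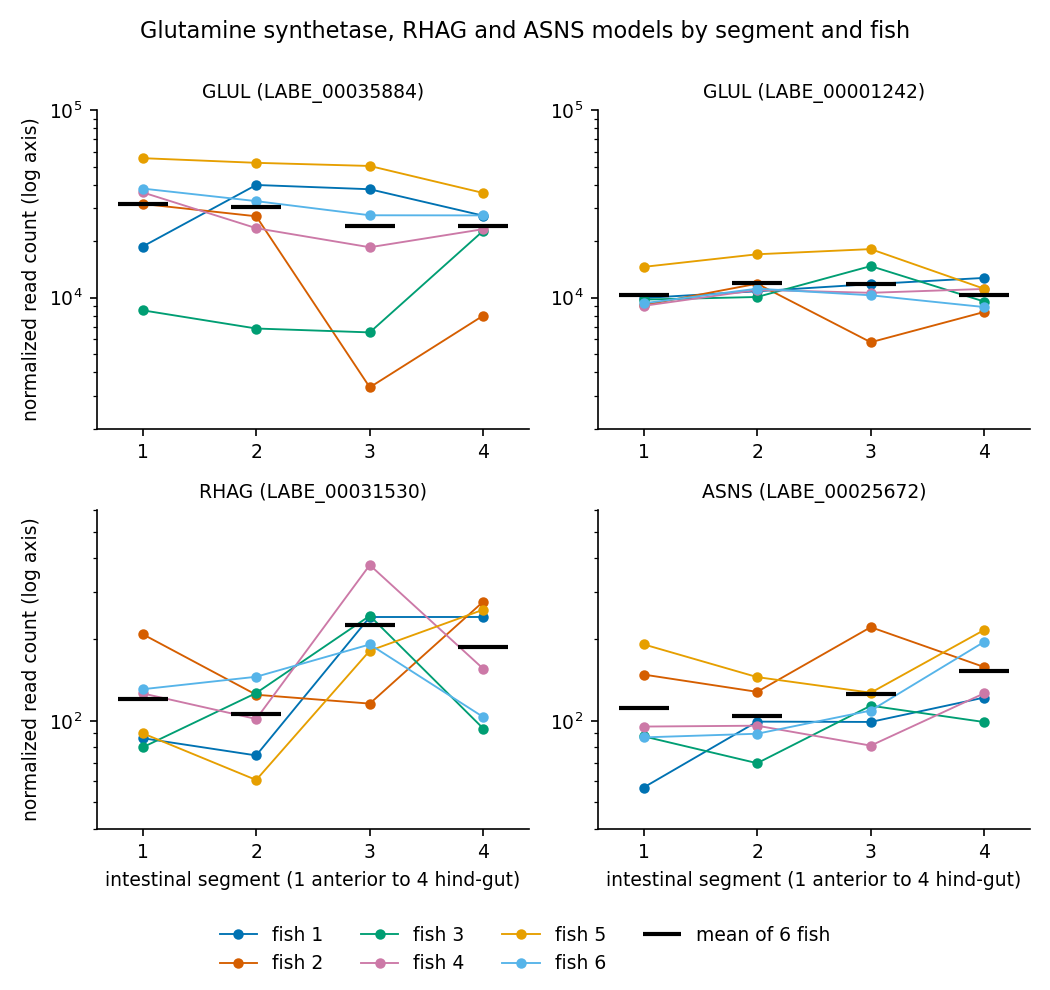
Normalized read count (y axis, log scale) in the 4 segments (x axis) for 4 models, with 1 coloured line per fish and a black bar at the mean of 6 fish. In GLUL (LABE_00035884) fish 5 is the highest in every segment while lines of other fish cross, and in RHAG fish 2 runs against the others, with 209 in segment 1 and 116 in segment 3.

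Glutamate dehydrogenase glud1 (LABE_00040230) fell step by step along the intestine. Its range was 8130 to 12499 with a median of 10175 in segment 1, and 6222 to 10953 with a median of 7693 in segment 2. In segment 3 it was 3886 to 6764 with a median of 5014, and in segment 4 it was 2177 to 4256 with a median of 2762. All 6 fish fell at each of the 3 steps, and segments 3 and 4 each lay wholly below segment 1. The log2 fold change was -0.31 ± 0.17 from segment 1 to 2 (limma adjusted p = 0.698), -0.68 ± 0.17 from 2 to 3 (adjusted p = 0.0295) and -0.85 ± 0.17 from 3 to 4 (adjusted p = 0.000757). Over the whole intestine it was -1.84 ± 0.17 (limma adjusted p = 7.54e-09), and -1.98 without fish 2.

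The call between segments 2 and 3 was the least firm of these, since it was lost without fish 1, 3, 4 or 5 (limma adjusted p of up to 0.204), with quantile normalization (0.0947) and with only the compared segments in the fit (0.0599). The step from segment 1 to segment 2 was not called, with or without fish as a block, although all 6 fish fell there. The other model, GLUD1 (LABE_00006261), stayed between 281 and 537 in all 24 libraries. Its medians were 410, 357, 415 and 435 in segments 1 to 4, and it was not called in any comparison (segment 4 against segment 1, log2 fold change 0.08 ± 0.13, limma adjusted p = 0.68).

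Aspartate aminotransferase GOT1 (LABE_00049092) nearly vanished from the hind-gut. Its range was 2348 to 6106 with a median of 4139 in segment 1, and 1358 to 4627 with a median of 3046 in segment 2. It was 581 to 2017 with a median of 872 in segment 3, and in segment 4 it was 15.1 to 25.1 in 5 fish and 227 in fish 2. Segment 4 lay wholly below segment 3, and segment 3 wholly below segment 1. Log2 fold changes were -2.08 ± 0.49 for segment 3 against 1, -5.01 ± 0.49 for segment 4 against 3 and -7.09 ± 0.49 for segment 4 against 1 (limma adjusted p = 0.00534, 1.27e-07 and 1.41e-10). Without fish 2 the last of these was -7.72 (limma adjusted p = 1.32e-12).

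From segment 2 to segment 3, GOT1 (LABE_00049092) was lower in 6 of 6 fish without a call (log2 fold change -1.62 ± 0.49, limma adjusted p = 0.0963), and it was called without fish 2 (-1.65, adjusted p = 0.013) or without the segment 4 library of fish 2 alone (adjusted p = 0.00501). Segments 1 and 2 did not differ beyond their spread (log2 fold change -0.46 ± 0.49, limma adjusted p = 0.977).

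The second GOT1 model (LABE_00052959) dipped in segment 3 and returned in the hind-gut. Its medians were 2943, 2306, 1883 and 2558 in segments 1 to 4, with ranges of 2376 to 3144, 2052 to 2551, 1827 to 2330 and 1543 to 3532. Segment 3 lay wholly below segment 1 (log2 fold change -0.49 ± 0.14, limma adjusted p = 0.0156), whereas segment 4 overlapped both. Against segment 3, segment 4 was higher in 5 of 6 fish (log2 fold change 0.34 ± 0.14, limma adjusted p = 0.128). This rise was called with fish as a block (adjusted p = 0.0487) and without the segment 4 library of fish 2 (0.48, adjusted p = 0.00209). That library was the lowest of its segment, so leaving it out could only widen the rise. The call between segments 3 and 1 was lost without fish 1, 3 or 4 (limma adjusted p of up to 0.0833) and with quantile normalization (0.0541).

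**Figure D3:**
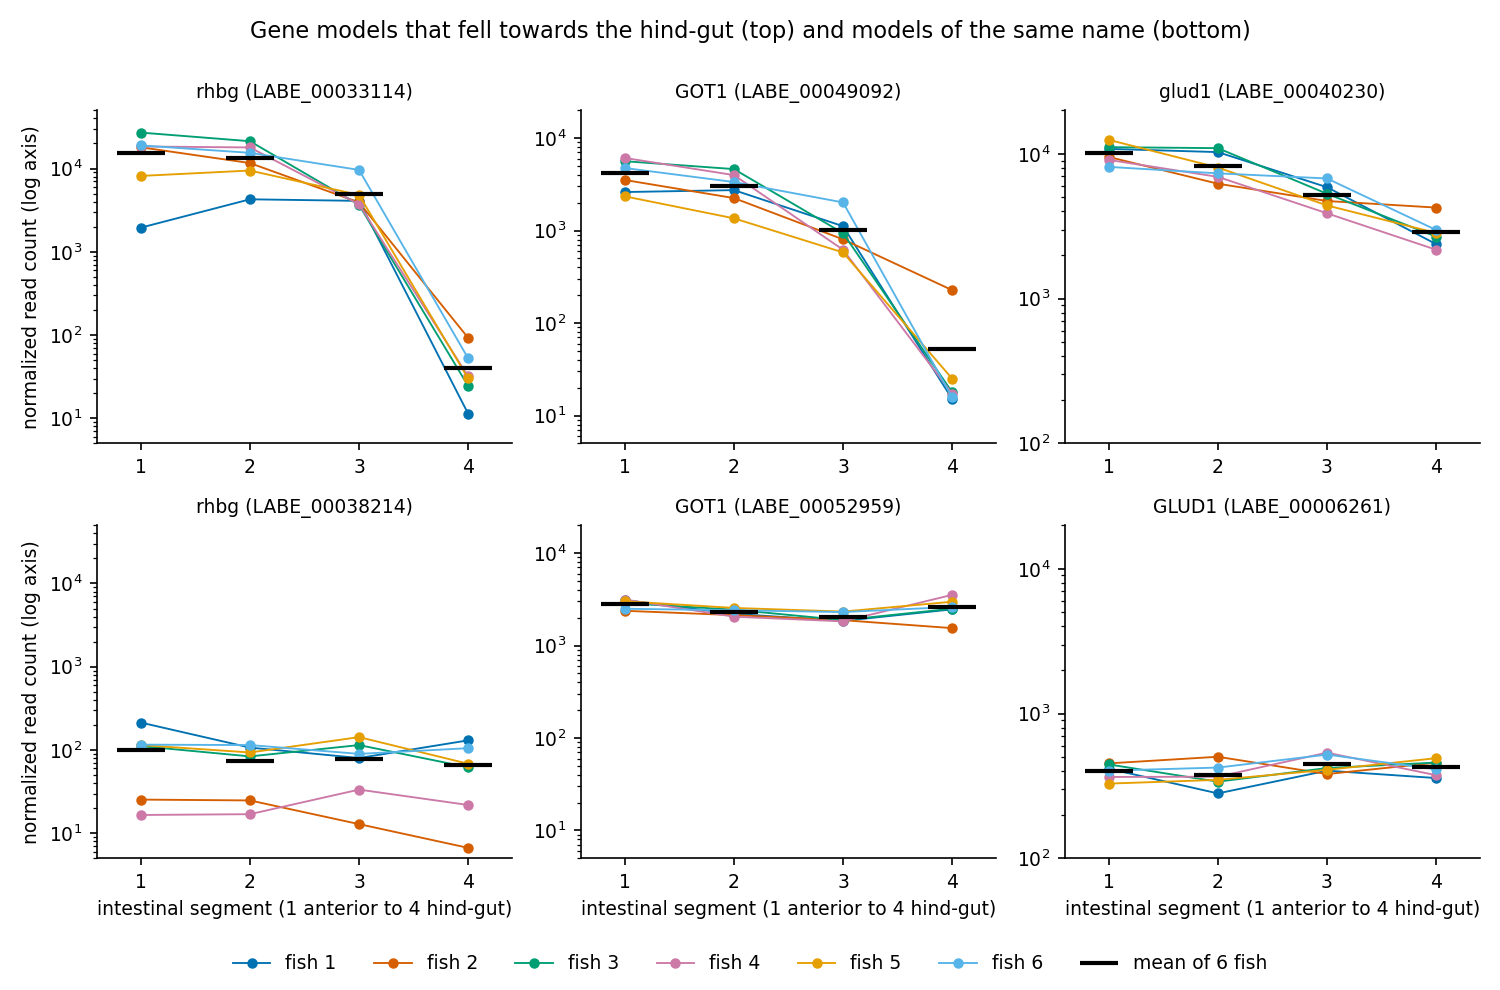
Normalized read count (y axis, log scale, the same in the upper and lower panel of a column) in the 4 segments (x axis) for the 3 models with the lowest adjusted p between segments 4 and 1 and for a model of the same name each, with 1 line per fish and a black bar at the mean of 6 fish. The upper models fall to medians of 31.0, 17.6 and 2762 in segment 4, while limma called none of those below between segments 4 and 1; in GOT1 (LABE_00049092) fish 2 stays at 227.

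Asparagine synthetase ASNS (LABE_00025672) had its highest mean and median in the hind-gut. Its medians were 91.5, 97.7, 112 and 142 in segments 1 to 4, with ranges of 56.8 to 192, 69.8 to 145, 81.1 to 222 and 99.1 to 217, which overlapped. In 6 of 6 fish segment 4 was above segment 1 (log2 fold change 0.52 ± 0.27, limma adjusted p = 0.16). A fit that held fish as a block called this rise (limma adjusted p = 0.0321), which made ASNS the one model of the 11 to be called higher in segment 4 than in segment 1 under any setting. In that fit 4285 of all 19515 models were called higher in segment 4.

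Calls differed in number between the steps along the intestine, though no test compared the steps. Segment 2 against segment 1 gave 0 calls among the 11 models with limma, with edgeR and with DESeq2, and 1 model with an unadjusted limma p under 0.05, GOT1 (LABE_00052959). Over all models 0.676% were called in that comparison. Segment 3 against segment 2 gave 1 call, the lower glud1 (LABE_00040230), where 1.07% of all models were lower and 406 were called in either direction. It gave 2 with fish as a block and 3 with DESeq2, with array weights or without fish 2, and each of these sets of 3 held RHAG as a higher model. Calls over all 19515 models rose too, to 1063 with the block, 679 with DESeq2 and 1021 with array weights. Without fish 2 there were 601 of 19142. Segment 3 against segment 1 gave 3 lower models, glud1 and both GOT1 models, where 6.81% of all were lower. Segment 4 against segment 3 gave 3 lower models, rhbg, GOT1 and glud1, where 5.82% of all were lower, and DESeq2 called the same 3. As a whole, 5 of 11 models differed among the 4 segments (limma F test), and 27.5% of all models did. These comparisons share libraries, so their counts are not independent of each other.

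Models that shared a name were set against each other within each fish. The ratio of their values also holds their lengths, so its size is not a comparison of levels, and the change of the ratio between segments is what was tested. The change of the log2 ratio of 2 models between segments 1 and 4 was tested by an exact two-sided sign-flip permutation test over the 6 fish, for the 6 pairs in which both models passed the filter. With 6 fish the smallest p possible is 0.0313, and 3 pairs reached it, but over 6 pairs the smallest adjusted p was 0.0625, so 0 pairs passed the threshold. The log2 ratio of rhbg LABE_00033114 to LABE_00038214 went from 7.34 ± 2.47 (SD) in segment 1 to -0.46 ± 2.35 in segment 4, and its change was -9.51 to -5.81, downward in 6 of 6 fish. That of GOT1 LABE_00052959 to LABE_00049092 went from -0.47 ± 0.62 to 6.46 ± 1.83 and rose in 6 of 6 fish by 3.33 to 8.55. In glud1 LABE_00040230 to LABE_00006261 it went from 4.66 ± 0.32 to 2.73 ± 0.27, again in 6 of 6 fish. The 3 pairs of GLUL models moved up in some fish and down in others (exact p of 0.469 to 0.656).

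Shares of the variation of log2(value + 1) over the 24 libraries set the models apart as well. Segment took 93.8% in rhbg (LABE_00033114), 91.8% in GOT1 (LABE_00049092) and 87.2% in glud1 (LABE_00040230), and fish took 3.73%, 1.78% and 3.26%. The reverse held in the second rhbg (LABE_00038214), with 3.26% for segment and 86.9% for fish. For GLUL (LABE_00035884) and GLUL (LABE_00001242) fish took 58.5% and 52.7%, and for ASNS 53.5%. The medians over all models tested were 22.4% for segment and 30.5% for fish. What differed between the fish, such as sex, size or last meal, is not part of the labels used here.

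**Figure D4:**
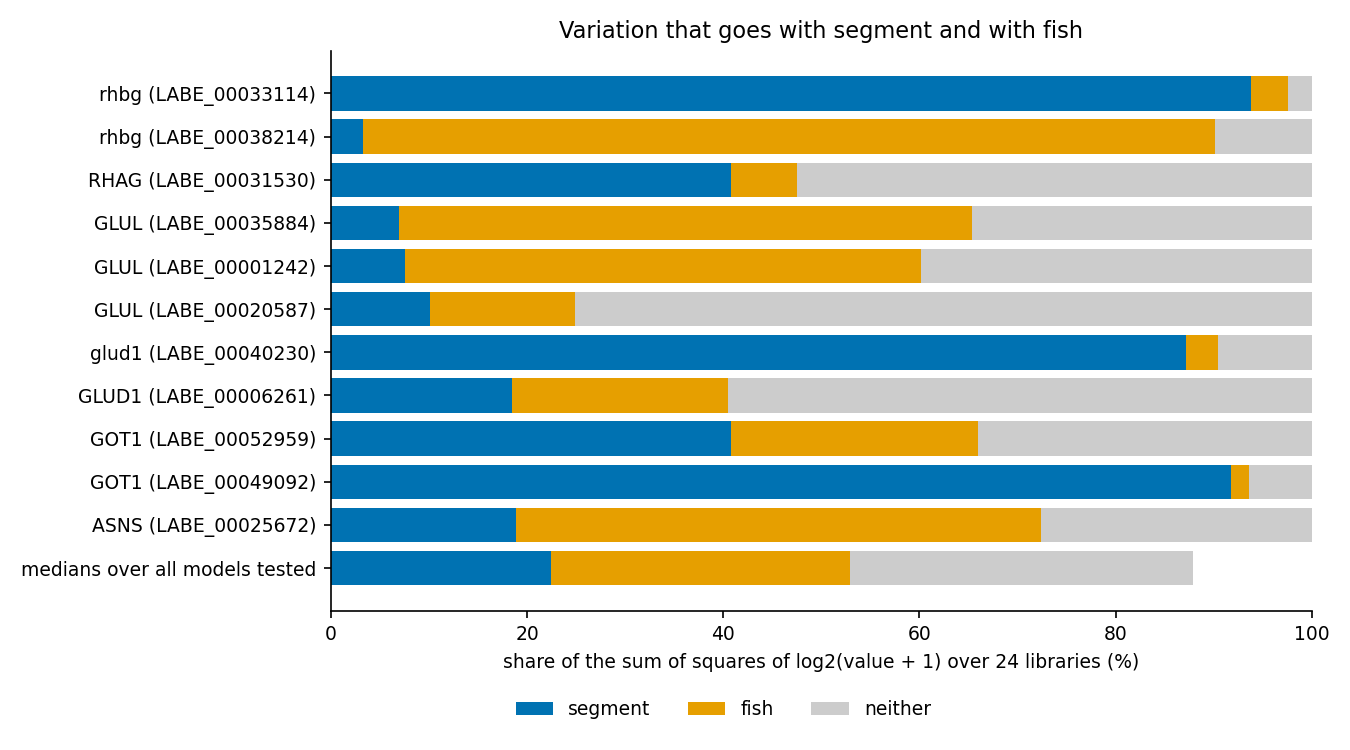
Share of the sum of squares of log2(value + 1) over 24 libraries (x axis, %) that goes with segment, with fish and with neither, for the 11 models (y axis). Segment takes 87.2% to 93.8% in glud1 (LABE_00040230), GOT1 (LABE_00049092) and rhbg (LABE_00033114); the bottom bar stacks 3 separate medians over all models and so does not add up to 100%.

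The 5 models most like rhbg (LABE_00033114) by Pearson correlation of log2(value + 1) over the 24 libraries were PCYT1B (r = 0.984), an enzyme of phosphatidylcholine synthesis, SGPL1 (r = 0.973), which splits sphingosine 1-phosphate, a model named Acyl-CoA desaturase (r = 0.973), APOB (r = 0.969), the structural protein of chylomicrons, and etnppl (r = 0.967), which breaks down phosphoethanolamine with release of ammonia. Their log2 fold changes between segments 4 and 1 were -2.71, -2.59, -3.55, -3.62 and -5.61, against -8.43 for rhbg, and this direction was fixed by choosing models that follow rhbg over the same libraries. The study singled out etnppl on these libraries too. For GLUL (LABE_00035884) the 5 most alike were MYLK (r = 0.827), CCR9 (r = 0.815), Arhgef18 (r = 0.764), prr15la (r = 0.758) and TRAPPC5 (r = 0.755), with limma adjusted p of 0.189 to 0.994 between segments 4 and 1. The 24 libraries come from 6 fish and share segments, so these correlations are descriptions only.

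In neighbouring pathways, 7 lists with 125 models tested held 23 models called higher and 29 called lower in segment 4 than in segment 1. Of all models, 17.1% were called higher and 14.8% lower. With fish as a block the lists held 29 and 35, and calls over all models rose too, to 4285 higher and 3865 lower of 19515. Models pass the filter through the segment in which they are high, so counts over those tested are descriptions. The list of enzymes that release ammonia, which also holds partner proteins of such enzymes, leaned to the lower side. It had 9 of 19 models lower, 1 higher, and a median log2 fold change of -0.37 against 0.04 over all models. The 3 called models with the highest mean were parts of the glycine cleavage system, which breaks down glycine in the mitochondrion and releases ammonia. GLDC (LABE_00036211), the decarboxylase, had medians of 26357, 16336, 7910 and 1547 in segments 1 to 4, Amt (LABE_00040812), the aminomethyltransferase, 16450, 11318, 5604 and 1189, and GCSH (LABE_00006063), the lipoyl carrier protein, 11987, 6713, 2348 and 274.

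Between segments 4 and 1, GLDC, Amt and GCSH (LABE_00006063) fell by 3.98, 3.54 and 5.31 on the log2 scale (limma adjusted p = 3.06e-11, 3.33e-12 and 2.95e-11), and all 3 also fell from segment 2 to segment 3 (adjusted p = 0.0199, 0.00862 and 0.0204). The study singled out GCSH (LABE_00006063) on these libraries. A second GCSH model (LABE_00011771, named here after its values were seen) was not called between segments 4 and 1 (log2 fold change -0.29, limma adjusted p = 0.322). Dld, the shared dehydrogenase of the system and of other complexes, fell by 0.44 (LABE_00018561, also named after its values were seen, limma adjusted p = 0.000185). GLDC, Amt, GCSH (LABE_00006063) and this Dld model are parts of the same system, so the lower models of the list are not all separate enzymes.

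Mitochondrial carriers and transporters of the plasma membrane moved in both directions. SLC25A22 carries glutamate into the mitochondrion, and its model LABE_00065259, which the study singled out on these libraries, had medians of 2621, 1777, 938 and 55.4 in segments 1 to 4 (segment 4 against segment 1, log2 fold change -5.19, limma adjusted p = 9.19e-10). Another SLC25A22 model (LABE_00027760) had medians of 108 and 180 in segments 1 and 4 and was higher in segment 4 (0.88, adjusted p = 0.0188), as was the dicarboxylate carrier SLC25A10 (1.54, adjusted p = 1.11e-05). A further well-read SLC25A22 model (LABE_00010193, named after its values were seen) was not called between segments 4 and 1. Its means were 4610, 4576, 4828 and 5112 in segments 1 to 4. In the list of mitochondrial carriers 2 of 11 models were lower and 2 higher, beside 14.8% and 17.1% of all models. With fish as a block 3 were lower and 2 higher, beside 3865 and 4285 of all 19515 models.

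Of 31 transporter models of glutamine and glutamate, 8 were lower and 7 higher, beside 14.8% and 17.1% of all models. With fish as a block 9 were lower and 10 higher, beside 3865 and 4285 of all 19515 models. The glutamate transporter SLC1A1 (LABE_00035589) rose from a median of 2240 in segment 1 to 12770 in segment 4 (log2 fold change 2.38, limma adjusted p = 5.91e-07). The neutral amino acid transporter Slc6a19 (LABE_00034446) fell from a median of 24035 to 7754 (-1.68, adjusted p = 2.92e-05). Further well-read Slc6a19 models, named after their values were seen, had higher means in segment 4 without a call, LABE_00034449 with 10173 and 17475 (0.87, adjusted p = 0.13) and LABE_00023250 with 7645 and 10766 (0.77, adjusted p = 0.0977). Others, also named after their values were seen, went in both directions. LABE_00088770 had means of 1955 in segment 1 and 577 in segment 4, and LABE_00075432 had 456 and 851. Another Slc6a19 model (LABE_00034444) was at 15.7 to 2179 with a median of 28.5 in segment 4, the highest being fish 2, against 334 to 822 in segment 1 (-3.28, adjusted p = 0.00176, and -4.35 without that library). It was higher in segment 3 than in segment 1 (2.51, adjusted p = 0.0281).

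Aminotransferases and the proline route had 4 of 19 models lower and 3 higher, beside 14.8% and 17.1% of all models. With fish as a block 4 were lower and 4 higher, beside 3865 and 4285 of all 19515 models. The mitochondrial partner of Got1, got2 (LABE_00005919), was lower by a small step (medians of 6192 and 4870 in segments 1 and 4, log2 fold change -0.38, limma adjusted p = 0.00901), far less than GOT1 (LABE_00049092). ABAT, which breaks down GABA, was lower (-1.04 ± 0.16, adjusted p = 1.46e-05), and aldh4a1, which makes glutamate in proline breakdown, was higher (0.93, adjusted p = 9.43e-05). The list of the urea cycle and arginine had 3 of 12 models lower and 0 higher, beside the same shares of all models. The called ones were AZIN1 (-0.35, adjusted p = 0.00956), ASL (-0.37, adjusted p = 0.0449) and Dpys (-0.66, adjusted p = 0.00715). Of these, ASL belongs to the urea cycle itself, AZIN1 is an inhibitor of antizyme in polyamine synthesis, and Dpys breaks down pyrimidines. Without the segment 4 library of fish 2 the call of ASL was lost (limma adjusted p = 0.107). With fish as a block 4 models of this list were lower, beside 3865 of all 19515 models.

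Enzymes that take nitrogen from glutamine or join glutamate to other groups had 4 of 18 models higher and 1 lower, beside 17.1% and 14.8% of all models. GMPS of purine synthesis (0.33, limma adjusted p = 0.0469) and ctps1 of CTP synthesis (0.89, adjusted p = 0.0111) were higher, and Gclm of glutathione synthesis was lower (-0.64, adjusted p = 0.0237). The call of Gclm was lost without the segment 4 library of fish 2 (limma adjusted p = 0.0594), and that of GMPS without fish 2 (0.064). With fish as a block 6 models of that list were higher and 3 lower, beside 4285 and 3865 of all 19515 models. Partners of Rh channels in acid and water balance had 6 of 15 models higher and 2 lower, beside the same shares of all models. With fish as a block 6 were higher and 3 lower, beside 4285 and 3865 of all 19515 models. Without fish 2 the counts of this list were 3 and 2 of 12, beside 3330 and 2981 of all 19142. Without its segment 4 library alone they were 4 and 3 of 13, beside 3500 and 3002 of all 19413. The water channel AQP1 (LABE_00056950) had 0 to 54.3 in segment 1 and 226 to 814 in segment 4 (5.03, adjusted p = 4.89e-06), and the water and ammonia channel Aqp8 (LABE_00033297) 0 to 2.62 and 239 to 408. Another Aqp8 model (LABE_00020898, named after its values were seen) was read in the anterior segments too. Its means were 87.3, 59.2, 61.8 and 77.9 in segments 1 to 4.

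**Figure D5:**
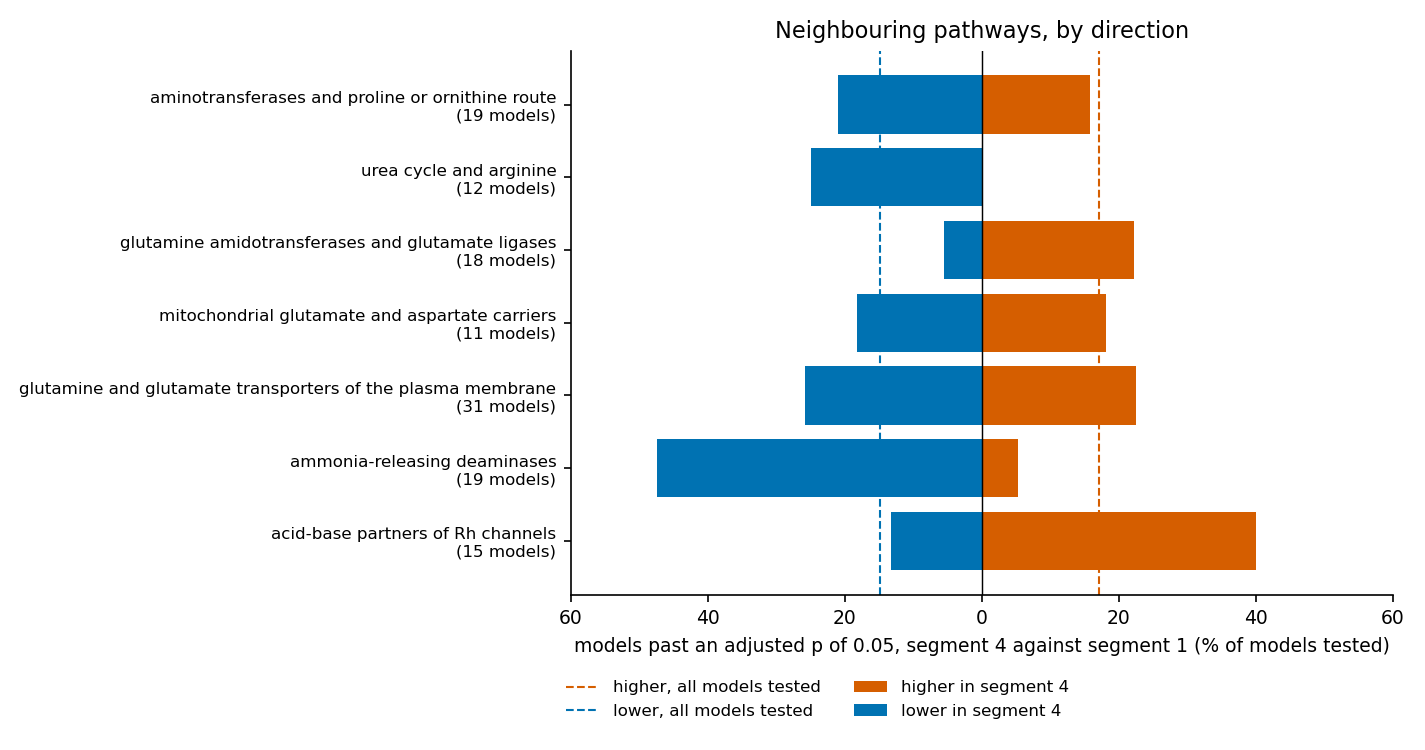
Share of the models of each of 7 pathway lists (y axis, with the number tested) that were lower (to the left) or higher (to the right) in segment 4 than in segment 1 at a limma adjusted p under 0.05 (x axis, % of models tested). Dashed lines mark the shares over all models, 14.8% lower and 17.1% higher. The list of enzymes that release ammonia, with partner proteins of such enzymes, has 9 of 19 lower.

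Beside these falls stand those of the enterocyte list, of which 12 of 46 models were lower and 2 higher between segments 4 and 3. Of all 19515 models, 1135 (5.82%) were lower and 1016 higher in that comparison. The summed level of the enterocyte list, 424958 to 491920 in segment 3, lay above the 226472 to 338416 of segment 4. Each of the 13 names found had reads in every segment, and the part of cell composition in the falls of rhbg, GOT1 and glud1 was not tested. The list of lymphocytes and macrophages had 7 of 25 models higher and 2 lower in segment 4 than in segment 1, beside 17.1% and 14.8% of all models. Its summed level was 128289 to 151747 in segment 1 and 179590 to 327008 in segment 4, of which the model MRC1 (LABE_00048734) alone had means of 84.2 and 60654. In segment 4 against segment 1, liver markers had 4 of 10 models lower and 1 higher, and markers of enteric neurons and glia 4 of 14 lower and 1 higher. Smooth muscle markers had 1 of 19 lower and 2 higher in that comparison, again beside 14.8% and 17.1% of all models. Pancreas markers had 0 of 14 called there by limma (0 at an unadjusted p under 0.05). Their summed level ranged from 371 to 177093 in segment 1 and from 597 to 249511 in segment 4.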

How the data were processed

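RNA of 4 intestinal segments of 6 ballan wrasse was sequenced. The authors trimmed the reads with cutadapt and sickle, checked them with FastQC 0.9.2, mapped them with TopHat to an assembly of their own, obtained counts of each model from featureCounts (Subread) and normalized these with DESeq2. The sources used here give no strand setting. The deposited values are a signal: normalized counts, that is, reads divided by a size factor, to 5 significant digits. Multiplied back, 94.56% to 99.31% of values per library came within 0.05 of whole reads. The 1 line without a gene model was left out.

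The limma package 3.58.1 (trend, R 4.3.3) tested log2(value + 1), segment as the only term, all 24 libraries in 1 fit, two-sided, with Benjamini-Hochberg adjustment over all 19515 models past the filter. Each p of this fit sets a difference against the spread between fish within a segment, pooled over the 4 segments. The fit takes the 24 libraries as independent and leaves the pairing by fish out. On recovered reads, edgeR 4.0.16 and DESeq2 1.42.0 were alternatives, as were pseudocounts of 10 and 0.1, other filters, quantile and TMM scaling, array weights, the 2 segments alone, and each fish left out. Libraries of 1 fish come from the same animal, and after the segment means were taken off they correlated at 0.435 on average, against -0.086 between different fish and segments. The study cut each gut into its segments, so the libraries are paired by fish, but its methods name no fish term in the test. Fish as a block is therefore an alternative, given wherever it changes a call of a member or a count of a pathway list. Marker lists, the models most like rhbg and GLUL, and models named after their values were seen are given without the block. For the pathway lists, the counts and named models without fish 2, without its segment 4 library and with the block were added after seeing the data. The functions were tested on simulated data.

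The members and lists were chosen with earlier results of these data known. A few further items, 4 models among the members and 1 in a pathway list, are not reported here; counts over lists and over all models include the latter. Named are the other members, up to 3 called models with the highest mean of each pathway list, and the 5 models most like rhbg (LABE_00033114) and like the GLUL model of the highest mean. Marker lists were to be given by counts and summed level only. The single markers Epcam, CDH1, hba, HEMGN and MRC1 are named outside this rule, with their values known. In the lists, a name that ends in a digit took no further digit, which departs from the matching of members and was set after seeing false matches. Gene names are those of the table. The available reference table does not hold these identifiers, so no sequences or coordinates are given.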

Additional observations from a re-analysis of the deposited data

Results flagged for a closer look

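Within a segment, the highest or lowest of the 6 fish was compared with the rest by Dixon's gap ratio in 44 groups (11 models in 4 segments). Its critical value is passed by about 1 in 20 groups where values are normally distributed and groups independent. Here the ratio was taken on normalized counts and not on their logs, and the groups share the same 6 fish. That rate therefore cannot be set against the 7 groups past the critical value, all for a high value, 3 of them in fish 2. In fish 2, GOT1 (LABE_00049092) was at 227 in segment 4, GLUL (LABE_00020587) at 34.5 in segment 4 and ASNS at 222 in segment 3. In fish 6, rhbg (LABE_00033114) was at 9615 and GOT1 (LABE_00049092) at 2017, both in segment 3. In fish 5, GLUL (LABE_00001242) was at 14589 in segment 1 and 17038 in segment 2.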

How the results depend on the processing

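The calls of rhbg (LABE_00033114), GOT1 (LABE_00049092) and glud1 (LABE_00040230) between segments 4 and 1 and between segments 4 and 3 kept their direction and their side of the threshold under all 18 alternatives, with log2 fold changes between segments 4 and 1 of -8.81 to -8.05, -7.72 to -6.30 and -1.98 to -1.65. No result reversed. The number of the 11 models called in segment 3 against segment 2 was 1, and it was 0 with quantile normalization, 3 with array weights, 3 with DESeq2, 2 with fish as a block and 0 to 3 without 1 fish or library. Against segment 1, segment 3 gave 3 calls, 5 with array weights or DESeq2, 4 with edgeR or fish as a block, 2 with quantile normalization and 2 to 4 without 1 fish; without fish 1 the 3 held rhbg (LABE_00033114) in place of GOT1 (LABE_00052959). Among all 4 segments 5 were called, and 3 to 5 without 1 fish. Over all models tested, calls ranged from 41 to 374 (132 without any change) for segment 2 against 1, from 70 to 1063 (406) for 3 against 2, from 1670 to 4523 (2721) for 3 against 1 and from 1513 to 3579 (2151) for 4 against 3, the highest with fish as a block in each; causes were not tested. With fish as a block, segment 4 against segment 1 gave 4 calls among the 11 models in place of 3, beside 8150 in place of 6221 over all 19515 models. The block changed the calls of no models among the 11 other than those given with it above. For the same-name pairs, leaving out 1 fish raised the smallest adjusted p of the exact permutation test from 0.0625 to 0.125, since 5 fish allow no smaller p. Sparsely read models, such as GLUL (LABE_00020587), are limited by depth.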

Other observations

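A model outside the names above carries the full name of the mitochondrial, ammonia-using carbamoyl-phosphate synthase (LABE_00019739), the enzyme that joins ammonia to bicarbonate at the entry to the urea cycle; it was looked up after the values were seen. It was read in every library, at 460 to 988 in segments 1 and 2, 706 to 911 in segment 3 and 660 to 1097 in segment 4. Its log2 fold change between segments 4 and 1 was 0.44 ± 0.17 (limma adjusted p = 0.0485), close to the threshold, and the 4 segments as a whole were not called (limma F test, adjusted p = 0.131).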
